A study of Mus musculus with 10 samples.

Results

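HOX genes were followed in the developing outer ear of the mouse. The members were the 39 protein-coding genes whose symbol places them in the HoxA, HoxB, HoxC or HoxD cluster, out of 53465 genes in the count table. All 39 were found by their Ensembl identifier. On GRCm39, HoxA spans bases 52132570 to 52237822 of chromosome 6, HoxB 96085106 to 96259082 of chromosome 11, HoxC 102829538 to 102945278 of chromosome 15 and HoxD 74498654 to 74595486 of chromosome 2. Whole pinna prominences, the tissue swellings that form the external ear, were micro-dissected at embryonic stage E14.5 and profiled by bulk RNA-seq of poly(A) RNA. Libraries came from 5 wild-type (WT) embryos and 5 *mEC1*dup/dup embryos, all on the C57BL/6J background. The *mEC1*dup/dup mice were made with CRISPR/Cas9 and carry, on both alleles, an additional copy of mEC1, an enhancer of *Hmx1*. The line serves as a model of bilateral constricted ears, a malformation in people. Replicates were siblings from separate litters, and the sources used here do not say which library came from which litter. The question asked of these genes was which paralog groups and clusters are used in the pinna, and whether any of them differs between the genotypes.

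HOX proteins are homeodomain transcription factors that give cells positional identity along the body axis. Their genes lie in 4 clusters, and genes at corresponding places in different clusters form 13 paralog groups. Genes toward the 3′ end of a cluster are switched on earlier and closer to the head than genes toward the 5′ end, an order known as collinearity. The pinna forms around the cleft between the first and the second pharyngeal arches. The neural crest of the first arch lacks *Hox* expression, whereas that of the second arch expresses group 2 genes, and loss of *Hoxa2* in mice disrupts the pinna. HOX proteins bind DNA together with the TALE homeodomain proteins of the PBX, MEIS and PKNOX families.

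Libraries held 17461544 to 18462073 counts. *Hmx1* checked the genotype labels. Its level in WT was 26.6 ± 3.0 CPM (SD, n = 5), where CPM is the count scaled to the TMM-normalised size of the library. In *mEC1*dup/dup the level was 66.2 ± 9.11 CPM (SD, n = 5), and the genotypes did not overlap. *Xist*, a transcript of female cells, had at most 5 counts in every WT library. The *mEC1*dup/dup libraries, in the order of their replicate numbers, held 12812, 19040, 18165, 2096 and 0 counts of it, so sex was not balanced between the genotypes. Only *mEC1*dup/dup replicate 5 was as low in *Xist* as the WT libraries. Fits with *Xist* as a covariate, given below, therefore compare the genotypes largely through that library. Summed marker genes of other tissues also differed. The 6 epidermal markers summed to 779 to 1463 CPM in WT and 560 to 786 CPM in *mEC1*dup/dup, and 4 of the 6 were called lower. The 6 skeletal muscle markers summed to 1288 to 1963 and 742 to 1214 CPM, with 3 of 6 called lower. The 5 neuronal markers summed to 39.3 to 500.1 CPM in WT, with the highest sum in WT replicate 4, and to 69.7 to 226 CPM in *mEC1*dup/dup, with none called. The 5 fibroblast markers summed to 4965 to 8633 and 5402 to 6071 CPM, with 1 called lower, and the 5 cartilage markers to 4553 to 7598 and 2050 to 6039 CPM, with none called. The 5 mast cell markers summed to 68.5 to 103 CPM in WT and 48.8 to 59.2 CPM in *mEC1*dup/dup, without overlap, with 3 of 5 called lower. Lists of Schwann cell, endothelial, macrophage and erythroid markers had none called. None of the markers in these lists was at 0. In whole tissue, fewer cells of a type and less RNA per cell cannot be told apart.

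The promoters of the 3 members with the highest levels per length of transcript, *Hoxa2*, *Hoxd8* and *Hoxd1*, are shown first, because these 3 genes define the pattern described below. Each is the RefSeq promoter on GRCm38.p6, covering 250 bases before to 50 bases after the annotated start of the gene, read 5′ to 3′ on the strand of the gene. Capitals mark matches to the motifs searched. The *Hoxa2* window is chr6:52164782-52165081 on the minus strand, the *Hoxd8* window chr2:74704365-74704664 on the plus strand, and the *Hoxd1* window chr2:74762730-74763029 on the plus strand.
Hoxa2: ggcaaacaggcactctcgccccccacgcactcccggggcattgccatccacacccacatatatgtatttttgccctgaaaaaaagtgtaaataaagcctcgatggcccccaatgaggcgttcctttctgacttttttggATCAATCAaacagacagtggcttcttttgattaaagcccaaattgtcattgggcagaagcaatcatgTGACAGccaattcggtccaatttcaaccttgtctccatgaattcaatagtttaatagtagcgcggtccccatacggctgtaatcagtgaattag
Hoxd8: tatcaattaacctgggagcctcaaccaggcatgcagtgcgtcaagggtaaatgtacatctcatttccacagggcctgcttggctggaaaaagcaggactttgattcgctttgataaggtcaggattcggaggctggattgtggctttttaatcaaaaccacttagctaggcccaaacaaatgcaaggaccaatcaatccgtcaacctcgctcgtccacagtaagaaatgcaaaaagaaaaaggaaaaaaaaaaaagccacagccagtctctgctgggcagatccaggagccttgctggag
Hoxd1: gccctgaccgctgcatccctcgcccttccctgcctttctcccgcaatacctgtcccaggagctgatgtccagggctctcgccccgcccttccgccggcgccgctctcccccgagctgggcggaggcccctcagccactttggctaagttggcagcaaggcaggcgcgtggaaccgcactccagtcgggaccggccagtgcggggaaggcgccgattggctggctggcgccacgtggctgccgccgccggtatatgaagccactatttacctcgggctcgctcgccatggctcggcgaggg
On GRCm39, the build used for counting, the identical sequences lie at chr6:52141762-52142061, chr2:74534709-74535008 and chr2:74593074-74593373, each with 1 match on its chromosome.

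Matches to 3 short motifs were searched on both strands of all 32851 RefSeq promoters: TGATTNAT, a joint PBX-HOX site, CTGTCA, the core bound by MEIS and PKNOX proteins, and CAAGTG, the core bound by HMX proteins. Their letters do not overlap one another in the matches found. RefSeq promoters were matched for 22 of the 39 members, among them 9 of the 16 members described below as expressed. The PBX-HOX motif occurred in 3.22% of all promoters and in 2 members, *Hoxa2* and *Hoxd11*. In *Hoxa2* it was the first capitalised stretch above, ATCAATCA, whose first base lies 111 bases before the start. The MEIS motif occurred in 19.2% of all promoters and in 2 members, *Hoxa2* and *Hoxa3*. In *Hoxa2* it was the later capitalised stretch, TGACAG, whose first base lies 44 bases before the start, so that this window held both motifs. The HMX motif occurred in 13.6% of all promoters and in *Hoxd12* alone among the matched members. The *Hoxd8* and *Hoxd1* windows held none of these letters. The 3 windows also differed in base composition, with 45.7% G and C in *Hoxa2*, 46.7% in *Hoxd8* and 69.7% in *Hoxd1*, against a median of 52.7% over all promoters.

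In the pinna, 16 of the 39 members were expressed, defined as a mean of at least 1 CPM over the 10 libraries. They included *Hoxa2* to *Hoxa5*, *Hoxb2* to *Hoxb5*, *Hoxc4*, *Hoxc5*, *Hoxc13*, *Hoxd1*, *Hoxd3*, *Hoxd8* and *Hoxd9*. A further 2 members, *Hoxb9* and *Hoxd4*, passed the filter on low counts below that level, 16 had traces of reads, and 5 had no read in any library. HoxA gave 5 expressed members, HoxB 4, HoxC 3 and HoxD 4. The expressed members of HoxA and HoxB were runs of neighbouring genes near the 3′ end, whereas HoxC added the isolated 5′ gene *Hoxc13*, and HoxD added the neighbours *Hoxd8* and *Hoxd9* from the middle of the cluster. All 39 members together took 1803 to 2622 counts per library, or 0.00987 to 0.0143% of the counts.

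Levels were compared between single genes as RPKM, the CPM per kilobase of annotated exon. *Hoxa2* was highest at 11.96 ± 1.77 RPKM (SD, n = 10), followed by *Hoxd8* at 8.20 ± 1.40 and *Hoxd1* at 4.89 ± 1.61 RPKM. This order was clear at the top. *Hoxa2* lay above *Hoxd8* in 10 of 10 libraries, *Hoxd8* above *Hoxd1* in 10, and *Hoxd1* above *Hoxd9*, the fourth in order, in 8. *Hoxd9* (2.77 ± 0.38 RPKM), *Hoxc4* (2.74 ± 0.60) and *Hoxc5* (2.59 ± 0.73) did not differ beyond their spread. *Hoxa5* followed at 1.79 ± 0.38 RPKM, and its gap to *Hoxc5* exceeded both SDs. *Hoxa4*, *Hoxa3*, *Hoxb4*, *Hoxb5* and *Hoxb3* lay between 1.28 and 0.832 RPKM with gaps within their spread. *Hoxc13* (0.585 RPKM), *Hoxb2* (0.390 RPKM), *Hoxd4* (0.266 RPKM) and *Hoxd3* (0.175 RPKM) were lower. The threshold of 1 CPM does not correct for length. Below that threshold, *Hoxc6* (0.224 RPKM), *Hoxb6* (0.210 RPKM) and *Hoxb9* (0.193 RPKM) still lay above *Hoxd3* by this measure, with gaps within their spread. Dividing by the length of the canonical transcript instead kept the order of the first 3 and moved *Hoxa3*, which has long alternative exons, from place 9 to place 5 at 3.096 RPKM.

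**Figure D1:**
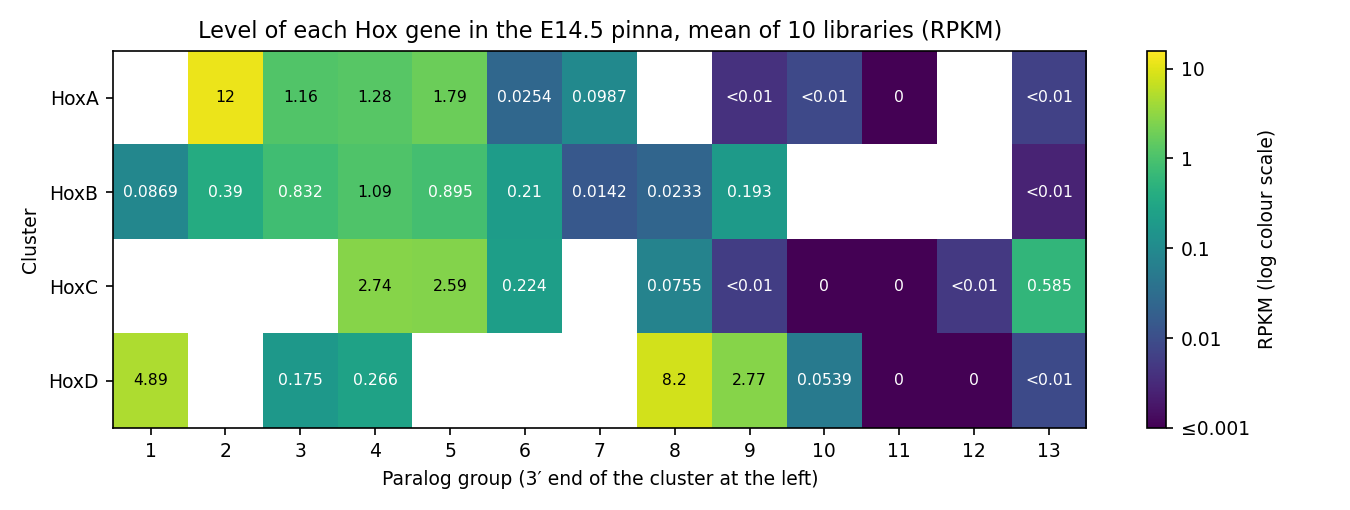
Mean RPKM of the Hox genes over 10 libraries, arranged by cluster (rows) and paralog group (columns), on a log colour scale with the value printed in each cell; white cells have no gene or no value shown. The highest values are Hoxa2 (11.96), Hoxd8 (8.20) and Hoxd1 (4.89), and no gene of groups 10 to 12 exceeds 0.0539.

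Summed over clusters, paralog group 2 gave 28.3% of all *Hox* RPKM, group 8 gave 19.0%, group 1 13.6%, group 4 12.3%, group 5 12.1%, group 9 6.81% and group 3 4.98%. Group 13 gave 1.38%, and groups 6, 7 and 10 to 12 each gave at most 1.05%. Dividing by the canonical transcript instead raised group 3 to 9.94%, above group 9 at 6.11%, and group 4, at 13.2%, then lay above group 1, at 12.2%. Most groups rested on 1 or a few members: *Hoxa2* in group 2, *Hoxd8* in group 8, *Hoxd1* in group 1 and *Hoxd9* in group 9. By cluster, HoxA gave 39.7%, HoxD 37.5%, HoxC 14.3% and HoxB 8.56% of the summed RPKM. HoxA and HoxD had no fixed order, since HoxD lay above HoxA in 5 of the 10 libraries. In raw counts, which are not corrected for length, groups 6 to 13 took 28.9% of the *Hox* counts on average, and 25.2 to 34.1% in WT and 26.4 to 29.0% in *mEC1*dup/dup libraries. WT replicate 1, the highest, had 720 of 2110 counts in these groups (34.1%, exact 95% binomial interval 32.1 to 36.2%), and WT replicate 2, the lowest, 455 of 1803 (25.2%, 23.2 to 27.3%). The members of these groups other than *Hoxd8* took 6.86 to 9.85% of all *Hox* counts, those of *Hoxd8* included.

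**Figure D2:**
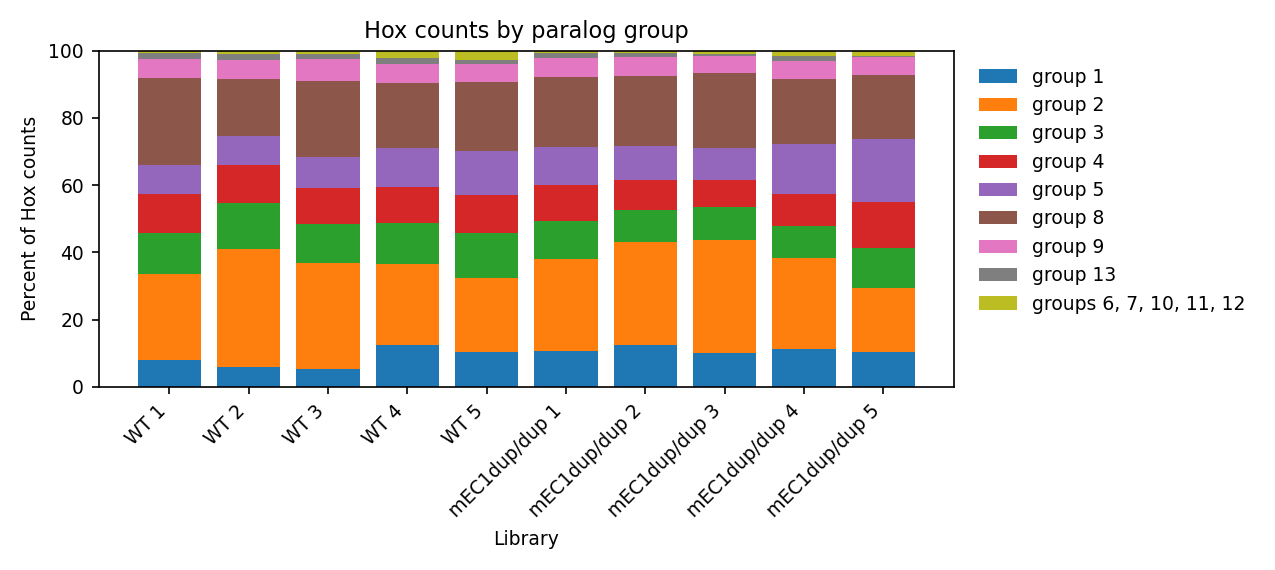
Percent of all Hox counts (y axis) that fell on each paralog group in each of the 10 libraries (x axis), stacked to 100%. In counts, not corrected for length, groups 2 and 8 are the largest blocks in every library, with group 5 close to them in mEC1dup/dup replicate 5 (18.6% against 19.1% each).

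Group 1 acts in the hindbrain in early embryos. *Hoxd1*, which is known for its role in pain-sensing neurons, had 121, 71, 79, 209 and 179 counts in WT, listed here and below in the order of replicates 1 to 5. The *mEC1*dup/dup libraries had 206, 176, 172, 213 and 220. WT replicates 1 to 3 were lower than every *mEC1*dup/dup library, while WT replicates 4 and 5 lay among them. The neuronal marker sum was highest in WT replicate 4, at 500.1 CPM, and lowest in WT replicates 2 and 3, at 50.5 and 39.3 CPM, where *Hoxd1* was lowest as well. In *mEC1*dup/dup, replicates 1 to 3 had sums of 69.7 to 86.5 CPM with *Hoxd1* at 9.34 to 11.8 CPM, so *Hoxd1* was high there with a low neuronal sum. The part of neurons in the level of *Hoxd1* was not tested. *Hoxb1*, the hindbrain paralog that marks the fourth rhombomere, had only 0 to 11 counts.

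Group 2 contains the selector gene of the second arch. *Hoxa2* (ENSMUSG00000014704, chromosome 6 of GRCm39, 52138599 to 52141811) had 526, 612, 612, 465 and 420 counts in WT. The *mEC1*dup/dup libraries had 648, 592, 623, 581 and 468. The groups overlapped, and WT replicate 5 and *mEC1*dup/dup replicate 5 were the lowest of their genotypes. *Hoxb2*, its paralog, had 18, 24, 28, 21 and 23 counts in WT and 36, 21, 28, 13 and 33 in *mEC1*dup/dup, a level per length of 0.390 RPKM against 11.96 RPKM for *Hoxa2*. An antisense gene, *Hoxb3os*, covers 29.7% of the exons of *Hoxb2*, and antisense *Hotairm1* covers 14.54% of those of *Hoxa2*. *Hotairm1* had 65 counts over all libraries and *Hoxb3os* 178, and whether counting used the strand of the reads is not given in the sources used here.

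Group 3 patterns the third arch and its derivatives, among them the thymus and parathyroid for *Hoxa3*. *Hoxa3* had 147, 149, 143, 140 and 153 counts in WT and 181, 123, 128, 112 and 169 in *mEC1*dup/dup. Its coefficient of variation was 3.82% in WT, below what counting error alone would give at these counts, and 23.1% in *mEC1*dup/dup. The difference between these spreads was not tested. *Hoxb3* had 74, 77, 62, 83 and 94 counts in WT and 82, 50, 51, 74 and 124 in *mEC1*dup/dup, and *Hoxd3* had 33, 22, 25, 20 and 26 in WT and 18, 16, 14, 23 and 18 in *mEC1*dup/dup. Both sets of groups overlapped. These levels carry a limit from the annotation. Antisense genes cover 22.2% of the exons of *Hoxa3* and 51.5% of those of *Hoxb3*, and 38.2% of the exons of *Hoxd3* are shared on the same strand with *Hoxd4* and a read-through model, *Gm28230*, so reads there could be lost or split. If no read in shared exons was counted, dividing the same counts by the unshared length would give *Hoxd3* 0.283 RPKM in place of 0.175.

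Group 4 patterns the neck vertebrae, and all 4 of its members had reads. *Hoxc4* had 146, 97, 121, 130 and 108 counts in WT and 156, 119, 89, 125 and 177 in *mEC1*dup/dup. *Hoxb4* had 34, 44, 36, 50 and 79 counts in WT and 51, 18, 22, 57 and 115 in *mEC1*dup/dup, and *Hoxa4* had 53, 43, 42, 31 and 30 in WT and 46, 21, 28, 17 and 56 in *mEC1*dup/dup. The libraries highest for *Hoxb4* were replicate 5 of each genotype. *Hoxd4* was low, with 9 to 19 counts per library, and shares 52.0% of its exons with *Hoxd3* and *Gm28230*. On the same assumption it would have 0.553 RPKM in place of 0.266.

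Group 5 includes *Hoxa5*, needed for the airways and the skeleton of the neck and chest, and *Hoxb5*, known from the neural crest that forms the nerves of the gut. *Hoxc5* had 125, 100, 109, 141 and 130 counts in WT and 185, 140, 130, 138 and 244 in *mEC1*dup/dup. Replicates 1 and 5 of *mEC1*dup/dup stood above all WT libraries, and the other 3 lay within their range. *Hoxa5* had 49, 54, 70, 72 and 44 counts in WT and 70, 59, 45, 59 and 84 in *mEC1*dup/dup. *Hoxb5* was the most variable member among those expressed, with coefficients of variation of 142% in WT and 108% in *mEC1*dup/dup. It had 6, 4, 6, 20 and 85 counts in WT and 27, 8, 9, 131 and 160 in *mEC1*dup/dup, so 3 libraries, WT replicate 5 and *mEC1*dup/dup replicates 4 and 5, held most of its counts. Its neighbour *Hoxb6*, at trace level and given in full after its values were seen, had 0, 0, 1, 8 and 25 counts in WT and 6, 1, 4, 27 and 17 in *mEC1*dup/dup, highest in the same 3 libraries. *Hoxb4*, the neighbour on the other side, was also highest there, at 4.38, 3.07 and 6.23 CPM in WT replicate 5 and *mEC1*dup/dup replicates 4 and 5, though *mEC1*dup/dup replicate 1 was close at 2.91 CPM. *Hoxb3*, the next gene toward the 3′ end, followed in part, highest at 6.71 and 5.21 CPM in replicate 5 of *mEC1*dup/dup and WT, but at 3.99 CPM in *mEC1*dup/dup replicate 4, below 4.69 CPM in replicate 1. *Hoxb2*, farther toward the 3′ end, did not share this pattern, with its highest counts in *mEC1*dup/dup replicates 1 and 5. The neuronal marker sum was 176, 226 and 179 CPM in the 3 libraries with the most *Hoxb5*, but 500.1 CPM in WT replicate 4, where *Hoxb5* measured 1.11 CPM.

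**Figure D3:**
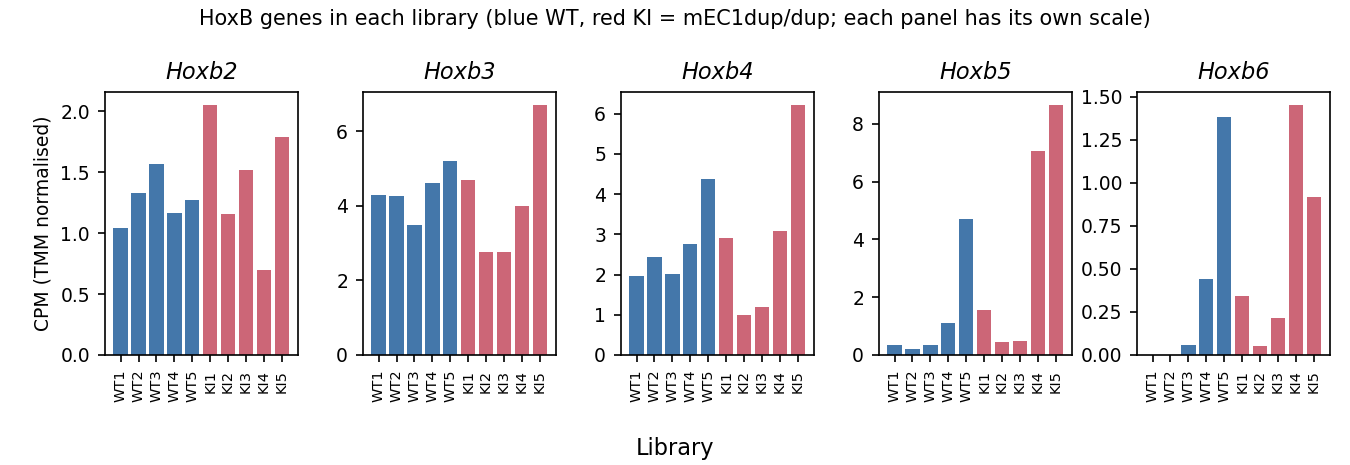
CPM (y axis, own scale in each panel) of 5 neighbouring HoxB genes in WT replicates 1 to 5 (blue) and mEC1dup/dup replicates 1 to 5 (red, labelled KI). Hoxb4, Hoxb5 and Hoxb6 are highest in WT5, KI4 and KI5, whereas Hoxb2 is not.

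Groups 6 and 7, which pattern the trunk, were at trace level. *Hoxc6* had 3 to 22 counts per library, *Hoxb6* 0 to 27, *Hoxa7* 0 to 15, *Hoxa6* 0 to 3 and *Hoxb7* 0 to 1. In groups 8 and 9 the HoxD members stood apart from their paralogs. *Hoxd8* (ENSMUSG00000027102, chromosome 2 of GRCm39, 74534959 to 74538297) had 533, 299, 447, 385 and 414 counts in WT and 515, 410, 433, 415 and 493 in *mEC1*dup/dup. *Hoxd9*, its neighbour, had 112, 89, 121, 106 and 103 counts in WT and 128, 101, 96, 106 and 135 in *mEC1*dup/dup. Each had reads in all 10 libraries, and the genotypes overlapped. Their paralogs were far lower. *Hoxc8* had 0 to 9 counts and *Hoxb8* 0 to 4 counts, or 0.0755 and 0.0233 RPKM against 8.20 RPKM for *Hoxd8*. *Hoxb9* had 5 to 14 counts, *Hoxa9* 0 to 2 and *Hoxc9* 0 to 2, or 0.193, 0.00399 and 0.00588 RPKM against 2.77 RPKM for *Hoxd9*. Antisense *Hoxd3os1*, with 115 counts over all libraries, covers 15.0% of the exons of *Hoxd8*, and none covers *Hoxd9*.

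The 5′ genes of groups 10 to 13, which pattern the lower trunk, the limbs and the genital region, were nearly silent. *Hoxa11*, *Hoxc10*, *Hoxc11*, *Hoxd11* and *Hoxd12* had 0 of 180643000 counts over the 10 libraries, which allows up to 3 counts, or 0.0166 CPM. This limit and the binomial intervals cover counting error only. *Hoxd10* had 0 to 6 counts per library, and *Hoxa10*, *Hoxa13*, *Hoxb13*, *Hoxc12* and *Hoxd13* had 0 to 3. *Hoxc13*, a regulator of hair and nail keratin genes, was the exception, with 39, 29, 28, 37 and 19 counts in WT and 34, 23, 12, 26 and 11 in *mEC1*dup/dup. All libraries had reads, and the groups overlapped. The keratin *Krt5*, an epidermal marker, measured 241 to 456 CPM in WT and 180 to 249.7 CPM in *mEC1*dup/dup, and the 6 epidermal markers together were lower in *mEC1*dup/dup as given above. The part of the epidermis in the level of *Hoxc13* was not tested.

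**Figure D4:**
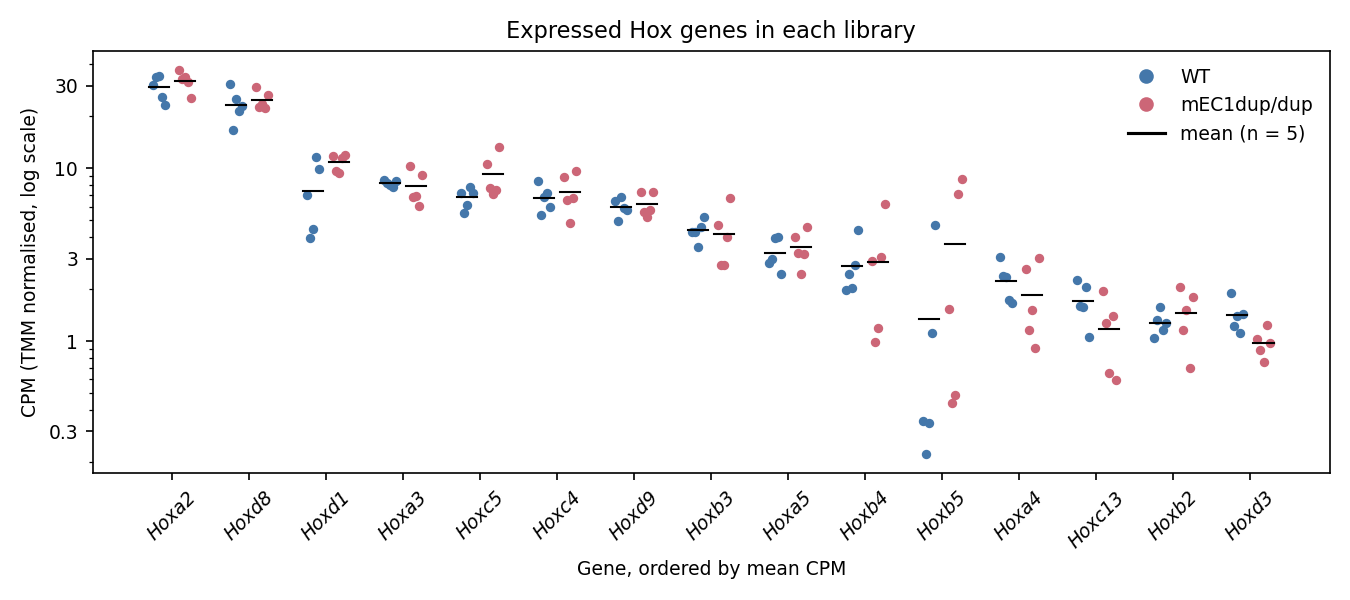
CPM (y axis, log scale) of 15 of the expressed Hox genes in each library, with 5 WT points (blue), 5 mEC1dup/dup points (red) and the mean of each genotype (black bar). The genotypes overlap for each gene shown, and Hoxb5 has the widest spread.

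Noncoding genes of the clusters were counted separately. *Hoxaas2*, antisense to 7.32% of the exons of *Hoxa3*, had 353, 459, 437, 258 and 317 counts in WT and 524, 457, 488, 443 and 350 in *mEC1*dup/dup. Its total over the libraries was 4086, and the groups overlapped. *Haglr*, an antisense gene at the HoxD cluster, had 19 to 49 counts in WT and 49 to 52 in *mEC1*dup/dup. *Hotair*, the noncoding gene of the 5′ part of HoxC, had 0 counts. Antisense genes were found over exons of further expressed members, with 16.0% of *Hoxa4* and 9.48% of *Hoxb5* covered.

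The genotypes were then compared for each member with edgeR's quasi-likelihood test, fitted on all 16426 genes that passed the filter on low counts. Calls required that p, adjusted by Benjamini-Hochberg, did not exceed 0.05 and that the average log2 CPM reached 1. Of the 39 members 18 passed the filter, 12 with a positive and 6 with a negative log2 fold change, and 0 were called, against 2.65% of all tested genes. Their median log2 fold change was 0.10, against -0.0041 over all tested genes. *Hoxb2*, *Hoxb9*, *Hoxc13*, *Hoxd3* and *Hoxd4* lay below an average log2 CPM of 1 and so could not be called. By adjusted p alone, 0 members were called as well. The unadjusted p was under 0.05 for 3 of the 18 members, or 2 by the Wald test of DESeq2 and 3 by limma-voom, neither of which called a member. It ranged from 0 to 3 members with single libraries left out, with 0 without *mEC1*dup/dup replicate 5, and was 5 with *Xist* as a covariate. Over all tested genes that share was 16.2%. No member separated the genotypes completely, against 5.07% of all tested genes.

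The 3 members were *Hoxc5*, *Hoxd3* and *Hoxd1*. *Hoxc5* rested on 6.78 ± 0.92 CPM (SD, n = 5) for WT against 9.20 ± 2.64 CPM for *mEC1*dup/dup, and the log2 fold change was 0.44 (standard error 0.18, edgeR adjusted p = 0.230). It was 0.27 without *mEC1*dup/dup replicate 5 and 0.89 with *Xist* as a covariate. *Hoxd1* measured 7.37 ± 3.35 and 10.8 ± 1.22 CPM, a log2 fold change of 0.56 (standard error 0.25, edgeR adjusted p = 0.292). *Hoxd3* measured 1.42 ± 0.31 and 0.977 ± 0.18 CPM, a log2 fold change of -0.53 (standard error 0.22, edgeR adjusted p = 0.248). None of the 3 passed the threshold after adjustment. *Hoxa2* had a log2 fold change of 0.12 (95% interval -0.14 to 0.37) and *Hoxd8* one of 0.10 (-0.20 to 0.39). The direction of both was unsettled, since *Hoxa2* had -0.21 with *Xist* as a covariate and *Hoxd8* ranged from -0.00095 to 0.21 with single libraries left out. *Hoxb5* had the highest fitted value, 1.43 (95% interval -0.51 to 3.38, edgeR adjusted p = 0.485), and it moved with single libraries, to 2.84 without WT replicate 5 and to 0.82 without *mEC1*dup/dup replicate 5. With *Xist* as a covariate, a fit that rests largely on *mEC1*dup/dup replicate 5, it was 3.298. A replicate block gave 1.55 (edgeR adjusted p = 0.0256) and was the only alternative that called *Hoxb5*. The replicate numbers were not taken as pairs, as explained further below. *Hoxc13* had a log2 fold change of -0.54 (95% interval -1.24 to 0.16), or -1.30 with *Xist* as a covariate. *Hoxa3*, *Hoxa4*, *Hoxa5*, *Hoxb2*, *Hoxb3*, *Hoxb4*, *Hoxb9*, *Hoxc4*, *Hoxd4* and *Hoxd9* had values from -0.27 (*Hoxa4*) to 0.18 (*Hoxb2*). These values moved as well. With single libraries left out, *Hoxa4* ranged from -0.53 to -0.10, *Hoxb2* from 0.02 to 0.35 and *Hoxb4* from -0.41 to 0.33. With *Xist* as a covariate *Hoxa4* was 0.25, *Hoxb3* 0.60 and *Hoxb4* 1.24.

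**Figure D5:**
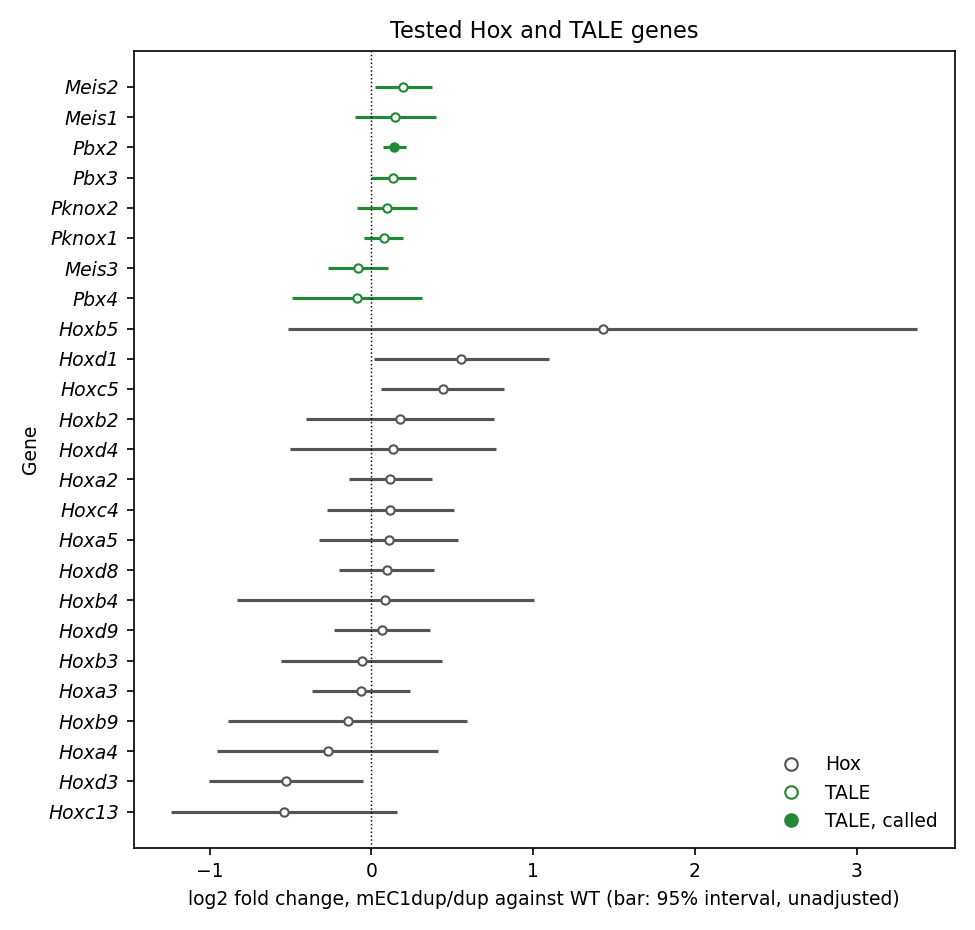
Log2 fold change of mEC1dup/dup against WT (x axis) with its unadjusted 95% interval for tested Hox genes (grey) and TALE genes (green); the filled point passed the threshold on adjusted p. Hoxb5 has the widest interval, -0.51 to 3.38, and Pbx2, at 0.14, is the filled point.

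The TALE genes, whose products bind DNA beside HOX proteins, were all expressed. *Pbx4* had 29 to 47 counts per library, and the other 8 had at least 410 in every library. All 9 were tested. Of these, 7 had a positive and 2 a negative log2 fold change, and 1, *Pbx2*, was called higher in *mEC1*dup/dup, against 0.834% of all tested genes called higher. *Pbx2* measured 149.6, 159, 159, 158 and 166 CPM in WT and 171, 174, 176, 178 and 174 CPM in *mEC1*dup/dup. Each *mEC1*dup/dup library thus lay above each WT library, as in 382 of all 16426 tested genes. The log2 fold change of *Pbx2* was small, 0.14 (standard error 0.03, edgeR adjusted p = 0.0431), between means of 158 ± 5.75 and 175 ± 2.63 CPM (SD, n = 5). The call held in 2 of the 10 fits that left out 1 library, those without WT replicate 5 or *mEC1*dup/dup replicate 1. When *Xist* entered the fit as a covariate, the log2 fold change was again 0.14 and the adjusted p was 0.480, the highest of its alternatives, which began at 0.00508 with the Wald test of DESeq2. *Pbx2* shares 6.16% of its exons with *Gpsm3* on the same strand.

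*Meis2* was not called, although its unadjusted p was under 0.05. It had a mean of 261 ± 22.9 CPM (SD, n = 5) for WT and 299.6 ± 37.9 CPM for *mEC1*dup/dup, with a log2 fold change of 0.20 (edgeR adjusted p = 0.247). That fold change was 0.13 without *mEC1*dup/dup replicate 1 and -0.03 with *Xist* as a covariate. *Meis1* (0.15), *Pbx3* (0.14), *Pknox2* (0.10) and *Pknox1* (0.08) had positive log2 fold changes, and *Meis3* (-0.08) and *Pbx4* (-0.09) had negative ones. Some of these directions were unsettled. *Meis1* (-0.17), *Pbx3* (-0.03) and *Meis3* (0.09) changed sign with *Xist* as a covariate, and *Meis1* had 0.05 without *mEC1*dup/dup replicate 1. Per kilobase of annotated exon, *Pbx2* had 45.1, *Meis2* 21.6 and *Meis1* 18.1 RPKM, against 11.96 RPKM for *Hoxa2*. The order depended on the length used, since per kilobase of the canonical transcript *Meis2* had 68.3, *Meis1* 60.7 and *Pbx2* 53.4 RPKM. *Pbx4* was the lowest by both lengths, at 0.616 and 0.840 RPKM.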

How the data were processed

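Whole E14.5 pinna prominences of 5 WT and 5 *mEC1*dup/dup embryos were sequenced. The authors used fastp for trimming, STAR for alignment to GRCm39 and featureCounts for counting, and deposited raw counts per gene without normalization. The annotation release and the use of strand are not given in the sources used here. Members and lists were chosen with earlier results of these data known. Members were those of the symbol rule, and all entered the counts and sums: values in every library at a mean of at least 1 CPM, ranges below that, except *Hoxb6*. Symbols and exons came from GENCODE vM39 (GRCm39), which matched 49355 of 53465 genes. Counts were filtered with filterByExpr, scaled by TMM and tested with edgeR version 4.0.16 (glmQLFit, glmQLFTest, genotype only) in R version 4.3.3, with Benjamini-Hochberg adjustment over 16426 genes. Standard errors are the log2 fold change divided by the square root of F, and 95% intervals are not adjusted. RPKM is TMM-scaled CPM per kilobase of merged exon. DESeq2 version 1.42.0, limma version 3.58.1, other scalings, filters and thresholds, a replicate block, *Xist* as a covariate and each library left out were alternatives. Division by the unshared exon length or the canonical transcript length was added after seeing the data. Motif matches are exact. No pair of libraries of a genotype was a copy, with counts differing by 2.56 to 18.2 times sampling noise. Depth limits the precision of members with few counts. Figures used matplotlib version 3.10.9. Protein sequences were not analysed here, and values of some genes are not reported here.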

Additional observations from a re-analysis of the deposited data

Results flagged for a closer look

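*Hoxb5* measured 4.71 CPM in WT replicate 5, far from the other WT libraries, of which the next highest, replicate 4, had 1.11 CPM. *Meis3* measured 29.1 CPM in *mEC1*dup/dup replicate 5, above the next highest *mEC1*dup/dup library at 25.6 CPM. Both stood apart by Dixon's criterion for 5 samples (gaps of 0.802 and 0.742 of the range). It was applied to 56 groups, and chance alone sets apart about 1 in 20 groups.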

How the results depend on the processing

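*Hox* genes called stayed at 0 under the alternatives run, except with a replicate block, which called 1. This was *Hoxb5* (log2 fold change 1.55, edgeR adjusted p = 0.0256). Over its other alternatives the adjusted p ranged from 0.156 without WT replicate 5 to 0.740 without *mEC1*dup/dup replicate 5 (both edgeR). The replicate numbers were not taken as pairs, because the sources used here do not tie them to litters. Same-numbered libraries deviated together in 4 of 5 pairs (correlations -0.0558 to 0.345, mean 0.162 against -0.0403 for different numbers). Of the 10 libraries, 4 were closest to their own number. These values do not exclude a pairing. The block raised calls over all genes from 435 to 688. The Wald test of DESeq2 gave 831, *Xist* as a covariate 2, and leaving out single libraries 154 to 655. TALE genes called fell from 1 to 0 without the filter or with *Xist* as a covariate, and ranged from 0 to 1 with single libraries left out. For *Pbx2* fits without single libraries gave log2 fold changes of 0.12 to 0.16. Expressed *Hox* genes numbered 13 to 19 under other thresholds on the mean, but 10 when at least 1 CPM was required in every library. The share of groups 6 to 13 was 22.6% without members that antisense genes overlap. Of 510 fold changes of single genes under alternatives, 486 kept their sign and 24 changed it, with no call in either fit and 9 of the 24 with *Xist* as a covariate. Depth leaves members with traces of reads untested, and each genotype has 5 libraries. Sex was not balanced between the genotypes, and only *mEC1*dup/dup replicate 5 was as low in *Xist* as the WT libraries.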

Other observations

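Genes of nerve tissue differed between the libraries, and those given here were chosen after their values were seen. *Phox2a*, a gene of autonomic and visceral neurons, had 15, 16, 14, 20 and 73 counts in WT, in the order of the replicates, and 50, 41, 38, 358 and 69 in *mEC1*dup/dup. It was thus highest in WT replicate 5 and *mEC1*dup/dup replicates 4 and 5, as *Hoxb5* was. By contrast *Drgx*, a gene of somatic sensory neurons, had 42, 4, 1, 329 and 45 counts in WT and 5, 7, 3, 44 and 18 in *mEC1*dup/dup, highest in WT replicate 4. The part of nerve tissue in the *Hoxb5* counts was not tested, and neither *Phox2a* (edgeR adjusted p = 0.163) nor *Drgx* (adjusted p = 0.270) was called between the genotypes.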
